A study of Mus musculus with 6 samples.

Results

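The comparison described here sets mouse dental mesenchymal cells (mDMCs) at the first passage in culture (P1) against the same kind of cells freshly taken from the tooth germ (P0). Samples were chosen by their passage label, which placed 4 of the 6 libraries of the series in the comparison, 2 of P1 and 2 of P0, and the 2 libraries of the second passage (P2) entered the estimate of spread and 1 brief comparison at the end. All cells came from the developing molars of ICR mouse embryos at embryonic day 14.5. The lower first molar germ was treated with dispase to take off the epithelium, and the mesenchyme was then dissociated with trypsin. P1 cells had been grown on plastic in standard medium, given elsewhere in the methods as DMEM with fetal bovine serum, and passaged once near confluence, whereas P0 cells went to RNA extraction without culture. Cells of both groups were harvested with trypsin before extraction. The libraries were sequenced in duplicate, and nothing states that duplicates were separate cultures or litters. The p-values therefore measure only the spread between these libraries, which may be technical.

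Dental mesenchyme is the neural crest-derived tissue of the tooth germ that forms the dental pulp, the odontoblasts and the surrounding follicle. In the germ its cells lie in soft matrix beside the epithelium and exchange Wnt, BMP, FGF and Hedgehog signals with it. On plastic with serum, mesenchymal cells of many tissues spread, build actin stress fibres anchored at focal adhesions and secrete matrix, a state that in fibroblasts depends on the transcription factors SRF and TEAD and their coactivators. Removal from a tissue is itself a stimulus that induces immediate early genes.

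Expression is given in scaled units, parts per 1000000 of the summed deposited values of a passage, and is not divided by transcript length. Levels are therefore compared between passages of 1 gene and not between genes. The deposited values had been forced to a common distribution, so that the most abundant genes share fixed steps (7148 scaled units at the top, then about 3424) and a change by the top step is a log2 difference of 1.06 in size. The files carry no read counts, so the depth behind each value is not known. The files give a mean and an error, from which both library values of a gene were recovered without knowing which belongs to which replicate. Duplicates of P1 lay a median of 0.177 apart on the log2 scale, against 0.0979 in P0. Changes are differences of log2(scaled units + 1), P1 minus P0, with standard errors (SE) from a limma fit to all 6 libraries. Genes that moved 2-fold or more at an adjusted p below 0.05 were called, and rose, fell and changed refer to these. Genes named without passing were chosen after their values were seen, as were *Jun*, *Dusp5*, *Myl9*, *Cnn2*, *Lmna*, *Dkk3*, *Id1* and *Id2*.

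Of 11386 genes tested, 1386 rose in P1 (12.2%) and 1369 fell (12.0%), together 24.2%, and 6626 (58.2%) had a 95% interval of the change lying wholly within 2-fold. The 2 P1 and the 2 P0 libraries did not overlap for any called gene, against 82.9% of all genes without overlap. Libraries that lie apart in a called gene named below are therefore no added support. Changes of 4-fold or more were found for 461 genes that rose and 455 that fell, and of 16-fold or more for 67 and 70. Among the genes that rose, 136 were under 1 scaled unit in both P0 libraries, and among those that fell, 142 were under 1 in both P1 libraries. The tables hold only genes above a minimum value in some libraries, as given below with the cell markers. A gene near 0 in either group was therefore measured only because it was high in other libraries. These counts describe the measured genes and support nothing further. The same limit holds for the p-values of genes named below that were near 0 in either group. The median change of all genes was 0.02. The common distribution forced on the values tends to hold this median near 0 and rises and falls in balance. A shift of most genes in 1 direction could therefore not show. Counts of list members below are to be read against the shares of 12.2% and 12.0%. The lists were written with earlier results of these data known, so this comparison describes their members and tests nothing.

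**Figure D1:**
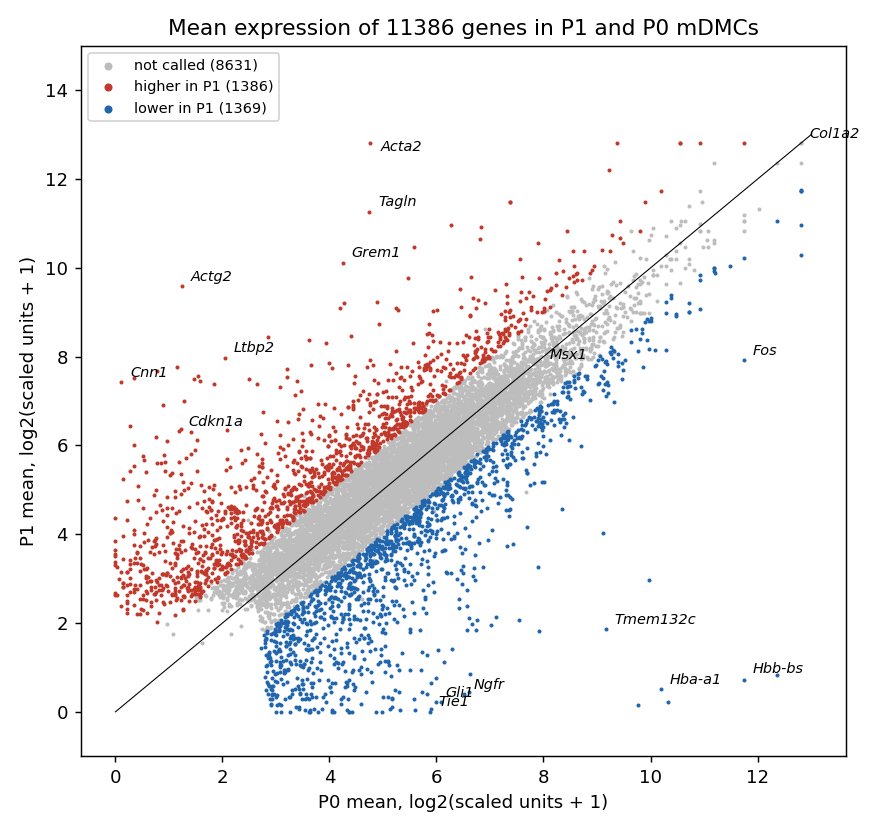
Mean level of each of 11386 genes in P1 (vertical axis) and P0 (horizontal axis), both as log2(scaled units + 1), with genes higher in P1 in red, lower in blue and not called in grey, and the line of equal levels in black. *Acta2*, *Actg2* and *Cnn1* lie farthest above the line and the globin gene *Hbb-bs* among the farthest below it.

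The label of both groups was checked against marker genes of dental mesenchyme, of which 15 of 15 were measured. The homeobox gene *Msx1* had 192 and 259 in P1, against 245 and 248 in P0, *Barx1* had 114 and 132 in P1, against 132 and 138 in P0, and *Prrx1* had 1173 in both P1 libraries, against 1329.9 and 1507 in P0. These genes were thus present on both sides. Of the 15 markers, however, 6 fell (*Dlx1*, *Lhx6*, *Pax9*, *Dlx2*, *Twist1* and *Pdgfra*), 2 rose (*Vim* and *Col1a1*) and the median change was -0.48. The summed level ran between 21760.3 and 26173 scaled units in P1 and between 19850.1 and 20177 in P0. That sum rests mostly on the abundant collagen genes *Col1a1*, *Col1a2* and *Col3a1* and does not reflect the dental transcription factors. Markers of other cells differed between the groups. Summed levels ran between 111 and 249 in P1 and 10083 and 14343 in P0 for 11 red cell markers, of which 10 fell, and between 163 and 293 in P1 and 861 and 957 in P0 for 20 endothelial markers, of which 16 fell. Of 9 measured epithelial markers 8 fell and *Perp*, which is also a p53 target, rose. Falls were also called for 6 of 9 macrophage, 3 of 5 Schwann cell, 4 of 8 pericyte, 3 of 6 cartilage and 3 of 4 osteoclast markers. Single markers of these lists rose, among them the myelin gene *Mbp* (12.1 and 17.7 in P1, against 2.40 and 2.62 in P0) and the cartilage proteoglycan *Acan* (5.55 and 19.2 in P1, against 0.321 and 0.427 in P0). Of 6 neuronal markers the cytoskeletal genes *Stmn2* (21.6 and 22.6 in P1, against 2.78 in both P0 libraries) and *Tubb3* rose, and the neurofilament gene *Nefl* fell (2.88 and 4.43 in P1, against 29.6 and 37.7 in P0).

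The endothelial receptor gene *Tie1* was listed at 0 in both P1 libraries and had 57.4 and 57.8 in P0, and *Cldn5*, *Robo4* and the keratin gene *Krt15* were also listed at 0 in both P1 libraries. *Pecam1*, a junction protein of endothelium, had 0.748 and 0.855 in P1, against 93.4 and 102 in P0, and the erythroid enzyme gene *Alas2* had 0.214 in both P1 libraries, against 44.2 and 49.0 in P0. The keratin genes *Krt14* and *Krt17* varied within P0, at 20.7 and 48.9 and at 9.08 and 69.0. The tables hold a gene only if 2 or more libraries exceeded a deposited value of 100. A marker near 0 in P1 was therefore measured because it was high in P0 and had to differ, so the counts of fallen markers describe these libraries and support nothing further. In such bulk samples fewer cells of a type and less RNA per cell cannot be told apart, and the part of these cells in the results below was not tested. Leaving out every listed marker of another cell type left 1379 genes that rose and 1314 that fell. Only the listed genes were taken out, so the totals could move little and do not measure the part of other cells.

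**Figure D2:**
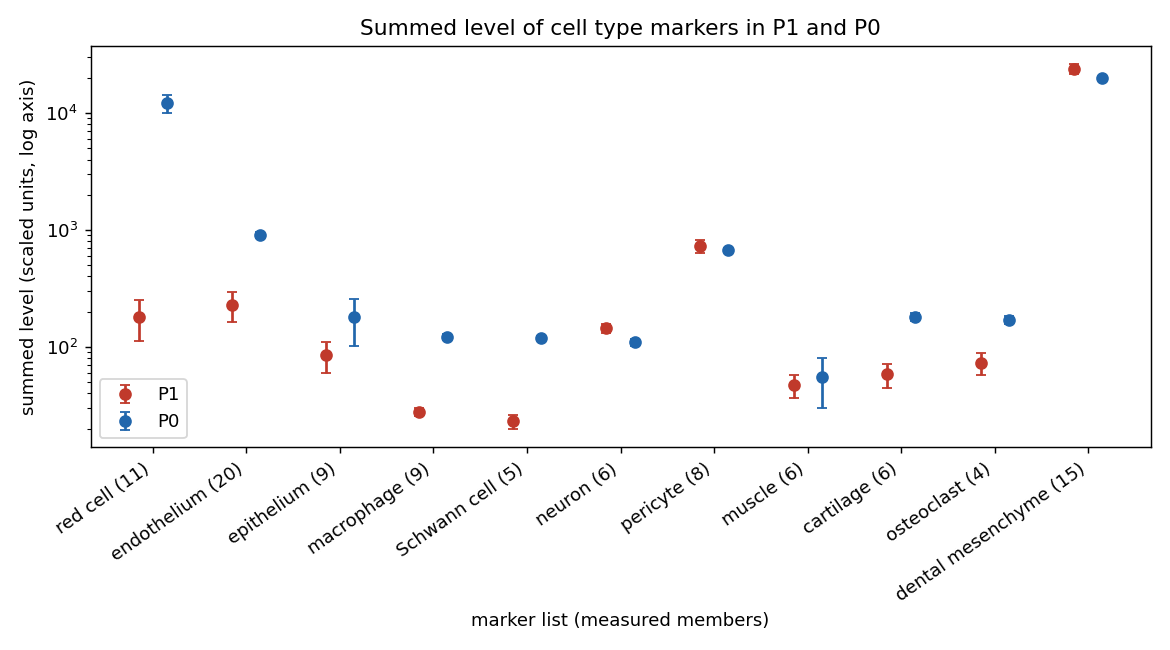
Summed level in scaled units (log axis) of 11 lists of cell type markers in P1 (red, left of each pair) and P0 (blue), with points at the sum of means and bars from the sum of the lower to the sum of the higher library value of each gene. Red cell, endothelial, macrophage and Schwann cell sums lie lower in P1 than in P0. The dental mesenchyme sum, which rests mostly on abundant collagen genes, does not, although 6 of its 15 members fell.

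The 3 largest rises among all genes were those of *Actg2*, *Acta2* and *Cnn1*, genes of the contractile apparatus of smooth muscle. Of 27 measured members 17 rose and 1 fell, with a median change of 1.68, against 12.2% and 12.0% of all genes. Smooth muscle actin *Acta2* (chromosome 19, 34241090 to 34255336 in mm10) had 7148 in both P1 libraries, against 19.8 and 32.0 in P0, a change of 8.09 ± 0.21 (SE, adjusted p = 1.0e-05), and P1 was at the shared top value. The enteric smooth muscle actin *Actg2* (chromosome 6, 83512905 to 83536265 in mm10) had 639 and 891 in P1, against 1.34 and 1.39 in P0, a change of 8.32 ± 0.36 (SE, adjusted p = 4.0e-05). Calponin *Cnn1*, which binds actin filaments, had 160.2 and 181 in P1, against 0.0534 and 0.107 in P0, and transgelin *Tagln* had 1508 and 3428 in P1, against 25.3 and 26.1 in P0. All 4 genes were high in both P1 libraries and low in both P0 libraries, although the P1 libraries of *Tagln* stood more than 2-fold apart. Actin transcripts are near-identical over long stretches, and reads could have been split between them in counting.

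Further rises reached *Lmod1*, which nucleates actin filaments (111 and 128 in P1, against 0.641 and 1.07 in P0), and the smooth muscle myosin *Myh11* (45.9 and 92.5 in P1, against 1.39 and 2.35 in P0). The cardiac actin *Actc1* went the other way, at 3.85 in both P1 libraries, against 7.59 and 17.3 in P0, with a change of -1.37 ± 0.35 (SE, adjusted p = 0.016), a call that was lost with a pseudocount of 5. *Srf*, the factor that binds CArG boxes in the promoters of many of these genes, had 94.3 and 126 in P1, against 124 and 138 in P0, and its libraries overlapped between the groups. The pericyte markers *Rgs5* (2.46 and 3.95 in P1, against 101 and 112 in P0) and *Kcnj8* (0.0534 and 0.107 in P1, against 9.19 and 9.51 in P0) fell, whereas *Cspg4*, another of them, rose (98.7 and 142 in P1, against 33.7 and 43.1 in P0). Summed levels of 6 skeletal muscle markers, *Actc1* among them, lay between 36.2 and 57.4 in P1 and 30.1 and 80.1 in P0. Besides the fall of *Actc1*, 1 of the 6 rose, the skeletal muscle actin *Acta1* (6.94 and 8.12 in P1, against 0.694 and 1.18 in P0).

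Promoters were read as the 250 bases before the RefSeq start (GRCm38.p6) and were found for 8536 measured genes. The RefSeq start nearest to the start listed with the expression values was taken, and the stretch need not adjoin that listed start. A CArG box, searched on both strands, lay in 26 of 1030 promoters of genes that rose (2.524%), in 12 of 987 of those that fell (1.216%), and in 41 of 5060 of genes within 2-fold (0.8103%), against 1.09% of all 8536 measured genes with a promoter and 1.391% of all 27025 promoters of the table. Of the other motifs searched, TGANTCA lay in 6.505% of promoters of genes that rose, 4.357% of those that fell and 2.984% of those within 2-fold. Over the 8536 measured genes with a promoter its share was 3.725%, and over all 27025 promoters 6.868%. For TGACGTCA the shares were 1.165% of genes that rose, 2.736% of those that fell and 3.123% of those within 2-fold. They were 2.812% over the 8536 genes and 1.562% over all 27025 promoters. Of 27 measured contractile genes 21 had a promoter. *Tagln* and *Actg2* had none and were not searched. A CArG box lay in 4 of the 21. The stretches of 3 of them follow, with the box in capitals, since 2 belong to genes that rose and 1 to the member that fell.
Myl9 (chr2:156775283-156775332, plus strand): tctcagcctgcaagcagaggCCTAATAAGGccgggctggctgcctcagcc
Cnn2 (chr10:79988524-79988573, plus strand): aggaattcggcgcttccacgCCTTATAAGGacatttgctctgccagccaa
Actc1 (chr2:114052893-114052942, minus strand): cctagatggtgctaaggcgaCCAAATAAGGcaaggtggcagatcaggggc
*Myl9*, a myosin light chain, had a change of 2.65 and *Cnn2*, a calponin of non-muscle cells, of 1.57, whereas *Actc1* changed by -1.37. A match describes the letters and says nothing of binding.

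Adhesion plaque and caveola genes rose in 17 of 27 and fell in 0 (3 lower at an unadjusted p under 0.05), with a median of 1.30. Caveolin *Cav1*, the main coat protein of caveolae, had 1682 and 2340.1 in P1, against 68.1 and 84.7 in P0, a change of 4.69 ± 0.21 (SE, adjusted p = 4.1e-05), and its partner *Cav2*, an adjacent gene, had 80.2 and 102 in P1, against 7.91 and 8.87 in P0. The actin-linked scaffolds *Pdlim1* and *Pdlim5* had 120.2 and 212 in P1, against 5.07 and 5.45 in P0, and 524 and 676 in P1, against 27.1 and 30.3 in P0. These rises left the groups far apart. *Lims2*, a partner of integrin-linked kinase, was listed at 0 in both P0 libraries and had 7.64 and 13.9 in P1. Focal adhesion kinase *Ptk2* had 92.6 and 92.9 in P1, against 115 and 120.2 in P0, and was among the members within 2-fold. Integrin chains rose in 9 of 16 and fell in 2. The largest rise was that of *Itga8* (582 and 895 in P1, against 82.0 and 89.3 in P0), a receptor for nephronectin and other RGD ligands, and the falls were *Itga9* (17.9 and 26.5 in P1, against 156 and 158 in P0) and the laminin receptor chain *Itga6* (20.8 and 36.5 in P1, against 139 and 184 in P0). The fibronectin receptor chain *Itga5* had 44.9 and 46.1 in P1, against 30.8 and 37.6 in P0, a change of 0.41, under the 2-fold limit.

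Genes of the YAP and TEAD pathway rose in 10 of 21 and fell in 1, with a median of 0.98. The closest P1 and P0 libraries stood 2-fold apart in 6 of those that rose. Connective tissue growth factor *Ctgf* had 265 and 794 in P1, against 60.9 and 66.6 in P0, and tissue factor *F3* had 78.7 and 201 in P1, against 8.76 and 9.62 in P0. The ankyrin repeat gene *Ankrd1* had 2.62 and 15.5 in P1, against 0 and 0.427 in P0. The P1 libraries of these 3 targets stood over 2-fold apart, yet both exceeded the P0 libraries, as in every gene that rose. *Cyr61*, an often used target of the same pathway, had 388 and 895 in P1, against 699.5 and 1001 in P0, with libraries that overlapped. The coactivator genes themselves were not higher in P1, with *Yap1* at 183 and 201 in P1, against 279.6 and 330.0 in P0, and *Wwtr1* at 162 and 167 in P1, against 164 and 183 in P0.

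**Figure D3:**
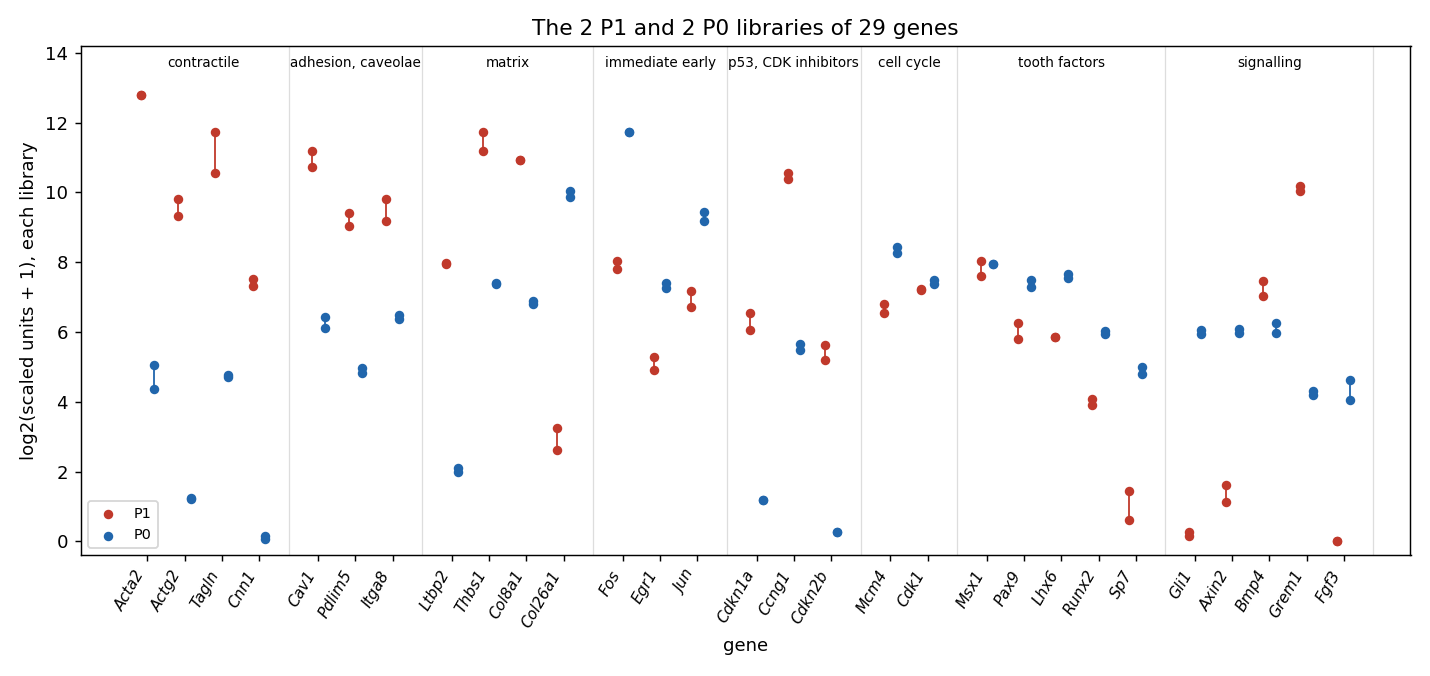
Values of both P1 libraries (red, left of each pair) and both P0 libraries (blue) as log2(scaled units + 1) for 29 genes in 8 groups, with a line joining duplicates. *Acta2*, *Cnn1*, *Cdkn1a* and *Grem1* are far higher in P1, *Fos*, *Gli1*, *Axin2* and *Fgf3* far lower, and the libraries of *Msx1* overlap.

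Collagen chains rose in 6 of 28 and fell in 9, with a median of -0.32. *Col8a1*, a short-chain network collagen, had 1942 in both P1 libraries, against 110.5 and 117 in P0, a change of 4.08 ± 0.08 (SE, adjusted p = 8.1e-06), and *Col5a3*, a chain of fibril-regulating collagen V, had 57.4 and 60.1 in P1, against 1.496 and 2.14 in P0. The largest fall was that of *Col26a1* (chromosome 5, 136741759 to 136883121 in mm10), with 5.13 and 8.55 in P1, against 941 and 1053 in P0, and a change of -7.03 ± 0.23 (SE, adjusted p = 2.1e-05). Among the falling chains were the membrane-spanning *Col13a1* (0.641 and 0.748 in P1, against 61.4 and 63.1 in P0) and *Col25a1* (2.83 and 3.85 in P1, against 93.2 and 99.8 in P0), and the cartilage chains *Col9a2* (0.801 and 1.07 in P1, against 41.8 and 47.6 in P0) and *Col2a1* (12.6 and 20.9 in P1, against 82.5 and 99.6 in P0), both of them cartilage markers here. The fibrillar chain *Col1a1* had 1939 and 2338 in P1, against 674 and 698 in P0, and rose, while *Col1a2* was at the shared top value in all 4 libraries and cannot show a change there. *Col3a1* was at the top in both P0 libraries and 1 of P1.

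Other matrix proteins rose in 19 of 41 and fell in 4, with a median of 0.95. *Ltbp2*, a microfibril-associated protein, had 248 and 253 in P1, against 2.94 and 3.31 in P0, a change of 5.93 ± 0.10 (SE, adjusted p = 5.6e-06). Thrombospondin *Thbs1* had 2335 and 3421 in P1, against 164 and 168 in P0, and osteonectin *Sparc* had 2341 and 7148 in P1, against 594 in both P0 libraries, with the P1 libraries of *Sparc* 3-fold apart across 2 of the shared steps. The gene for fibronectin, *Fn1*, had 843 and 1050.0 in P1, against 279.6 and 323 in P0, a change of 1.64 ± 0.25 (SE, adjusted p = 0.0025). *Emilin3* fell, with 0 and 0.320 in P1, against 62.7 and 71.5 in P0. *Tnc* and *Postn*, matricellular proteins of embryonic mesenchyme, had 237 and 386 in P1, against 479.6 and 491 in P0, and 2341 in both P1 libraries, against 3428 in both P0 libraries, and neither passed.

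Collagen processing genes rose in 10 of 22, led by the crosslinking oxidases *Lox* (2340.1 and 3426 in P1, against 154 and 174 in P0) and *Loxl4* (24.4 and 37.3 in P1, against 1.39 and 1.496 in P0). Transglutaminase *Tgm2* fell (26.0 and 26.8 in P1, against 74.0 and 81.2 in P0). The collagen chaperone *Serpinh1* had 1505 and 1680.0 in P1, against 999 in both P0 libraries, a change of 0.67, under the limit. Proteases and their inhibitors rose in 20 of 32 and fell in 2. The metalloprotease *Pappa*, which cleaves IGF binding proteins, had 93.2 and 121 in P1, against 5.34 and 6.20 in P0, and the metalloprotease inhibitor *Timp1* had 154 and 305 in P1, against 14.6 and 15.2 in P0. Inhibitors and proteases were thus both among the genes that rose. *Mmp9* fell, with 2.35 and 2.78 in P1, against 98.5 and 113 in P0, and is also an osteoclast marker, as is *Acp5* (0.427 and 0.855 in P1, against 10.04 and 10.5 in P0). Gelatinase *Mmp2* had 224 and 354 in P1, against 253 and 285 in P0, with libraries that overlapped.

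Annexins and S100 proteins, calcium-binding proteins of membranes and cytoskeleton, had the highest share of rises among the lists, with 14 of 17 and a median of 1.51. *Anxa8* had 159 and 248 in P1, against 0.481 and 0.962 in P0, *S100a4* had 566 and 611 in P1, against 16.99 and 19.4 in P0, and the membrane scaffold *Ahnak2* had 158 and 209 in P1, against 0.214 and 0.321 in P0. The changes of the 3 genes were 6.87, 4.94 and 7.17. *Anxa1* had 1508 and 1683 in P1, against 104 and 117 in P0. Lysosomal genes rose in 14 of 27 and fell in 0 (0 lower at an unadjusted p under 0.05), with a median of 1.03 and every member above 0. The peptidase *Tpp1* had 36.1 and 39.7 in P1, against 5.72 and 6.52 in P0, acid ceramidase *Asah1* had 255 and 281 in P1, against 66.7 and 67.3 in P0, and cathepsin D, *Ctsd*, had 593 in both P1 libraries, against 157 and 160.1 in P0. Duplicates of these 3 lay close together in both groups.

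Immediate early genes, which respond to growth factors and tissue dissociation within minutes, fell in 21 of 30 and rose in 0 (0 higher at an unadjusted p under 0.05), with a median of -1.79. *Fos* (chromosome 12, 85473890 to 85477273 in mm10) had 222 and 259 in P1, against 3425 in both P0 libraries, a change of -3.83 ± 1.28 (SE, adjusted p = 0.042). *Egr1* had 28.8 and 38.2 in P1, against 151 and 167 in P0, *Jun* had 104 and 145 in P1, against 581 and 698 in P0, and *Arc* had 0.801 and 2.03 in P1, against 27.1 and 33.7 in P0. P0 was high in both libraries for each of the 4. The error of *Fos* came mainly from P2, whose libraries held 19.5 and 440.2, and with the 4 libraries of P1 and P0 alone its adjusted p was 6.7e-05, whereas without a trend in the variance prior it was 0.0503, above the limit. *Fosb* had 25.9 and 33.7 in P1, against 191 and 215 in P0, and did not pass, at an adjusted p of 0.16 with all 6 libraries and 3.3e-04 with those 4. Not every member was lower, as *Ier5* had 94.0 and 137 in P1, against 85.3 and 104 in P0, and *Klf2* had 16.3 and 16.8 in P1, against 13.2 and 21.3 in P0. Summed levels of the list ran between 1607 and 2263 in P1 and 8308 and 8917 in P0. *Fos* alone, on a shared step, made up 3425 of either P0 sum, so the sums do not reflect the members evenly.

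Among 25 immediate early genes with a promoter 3 held a CArG box, and *Dusp5* and *Egr2* are printed because they fell while carrying a box like *Myl9* and *Cnn2*, which rose. A further box follows the first directly in *Dusp5*. The other gene was *Zfp36*, which did not pass. *Egr1* had no promoter to search.
Dusp5 (chr19:53529043-53529092, plus strand): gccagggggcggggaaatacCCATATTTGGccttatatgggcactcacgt
Egr2 (chr10:67537777-67537826, plus strand): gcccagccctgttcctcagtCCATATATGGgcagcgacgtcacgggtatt
*Dusp5*, a phosphatase of ERK, changed by -1.12, a call that was lost with the 4 libraries of P1 and P0 alone (adjusted p = 0.0717), and *Egr2*, a zinc finger factor, by -3.39, with values of 4.49 and 11.9 in P1, against 83.8 and 89.96 in P0.

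Of 18 heat shock genes 4 rose (22.2%) and 3 fell (16.7%), against 12.2% and 12.0% of all genes. The closest P1 and P0 libraries stood 2-fold apart in 1 of those that fell. The small heat shock proteins *Cryab* (41.4 and 54.3 in P1, against 0.588 and 0.855 in P0) and *Hspb1* (51.2 and 70.0 in P1, against 3.10 and 5.98 in P0) rose, with changes of 4.82 and 3.51. The inducible chaperones *Hspa1a* (26.2 and 48.1 in P1, against 87.6 and 131 in P0) and *Dnajb1* (89.0 and 99.2 in P1, against 248 and 314 in P0) fell. Of 23 genes of protein folding in the endoplasmic reticulum and the unfolded protein response, 5 rose, 1 fell and 15 lay within 2-fold. All 5 that rose are known targets of the ATF4 branch, which also answers amino acid shortage: *Trib3* (25.3 and 48.3 in P1, against 0.107 in both P0 libraries), *Chac1* (36.4 and 61.1 in P1, against 0.855 and 0.962 in P0), *Asns* (176 and 259 in P1, against 41.9 and 43.9 in P0), *Sesn2* (95.8 and 103 in P1, against 18.6 and 26.7 in P0) and *Ddit3* (59.4 and 90.4 in P1, against 22.8 and 24.3 in P0). *Atf4* itself had 360.2 and 419 in P1, against 242 and 245 in P0, a change of 0.67. The chaperone *Calr* (1172 and 1329 in P1, against 1172 and 1329 in P0) and the stress factor *Xbp1* (160.2 and 168 in P1, against 153 and 166 in P0) did not pass, and the only fall, of *Hspa5*, was by the top shared step (3432 in both P1 libraries, against 7148 in both P0 libraries).

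The letters TGATGNAA, the core of sites bound by ATF4 with a C/EBP partner, were searched on both strands. They lay in 3 of 21 promoters of this list (*Chac1*, *Asns* and *Herpud1*). The share was 2.913% in genes that rose, 2.432% in those that fell and 1.522% in those within 2-fold. It was 1.792% in all measured genes and 3.537% in all promoters of the table. Among immediate early genes 2 of 25 promoters held the letters, those of *Gadd45g* and of *Atf3*, which fell. The stretches of *Chac1* and *Asns*, which rose, are given with the letters in capitals.
Chac1 (chr2:119351029-119351076, plus strand): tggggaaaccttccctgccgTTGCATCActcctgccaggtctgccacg
Asns (chr6:7693210-7693252, minus strand): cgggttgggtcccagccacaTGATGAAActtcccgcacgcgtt
*Chac1*, which degrades glutathione, changed by 4.66 and *Asns*, asparagine synthetase, by 2.29.

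Glutathione and NRF2 target genes rose in 7 of 24 and fell in 1. The xenobiotic hydrolase *Ephx1* had 168 and 189.9 in P1, against 1.496 and 2.03 in P0, a change of 6.03 ± 0.13 (SE, adjusted p = 9.8e-06). Heme oxygenase *Hmox1* had 86.8 and 109 in P1, against 13.1 and 14.4 in P0, and the quinone reductase *Nqo1* had 54.5 and 71.0 in P1, against 14.4 and 15.1 in P0. The glutathione synthesis gene *Gclc* (33.3 and 44.8 in P1, against 24.1 and 26.4 in P0) and thioredoxin reductase *Txnrd1* (188 and 239.8 in P1, against 152 and 159.7 in P0) differed by less than 2-fold.

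Targets of p53 and inhibitors of cyclin-dependent kinases rose in 15 of 22 and fell in 2, with a median of 1.83. *Cdkn1a*, encoding the inhibitor p21, had 66.1 and 91.7 in P1, against 1.28 in both P0 libraries, a change of 5.11 ± 0.22 (SE, adjusted p = 3.8e-05). *Cdkn2b*, encoding p15, had 35.9 and 48.5 in P1, against 0.214 in both P0 libraries, and the cyclin *Ccng1* had 1330.5 and 1507 in P1, against 43.5 and 49.9 in P0. The proapoptotic gene *Pmaip1* had 22.2 and 38.6 in P1, against 1.07 and 1.28 in P0, and *Phlda3* had 207 and 242 in P1, against 25.7 and 28.4 in P0. All 5, like every gene that rose, were higher in both P1 libraries. *Cdkn1c*, an imprinted inhibitor, fell, with 118 and 140.5 in P1, against 428 and 504 in P0, and *Cdkn1b* had 50.4 and 67.8 in P1, against 97.8 and 98.2 in P0, a change of -0.73.

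DNA replication genes fell in 13 of 40 and rose in 0 (1 higher at an unadjusted p under 0.05), with a median of -0.74. The closest P1 and P0 libraries stood 2-fold apart in 8 of those that fell. The helicase subunit *Mcm4* had 92.6 and 111 in P1, against 307 and 349 in P0, a change of -1.68 ± 0.12 (SE, adjusted p = 1.8e-04), and the sliding clamp *Pcna* had 145 and 148 in P1, against 427 and 439 in P0. The nucleotide reductase subunit *Rrm2* had 123 and 165 in P1, against 111 and 116 in P0, and was not lower. Mitotic genes lay within 2-fold in 30 of 34, with 1 that rose, *Anln* (213 and 238 in P1, against 81.4 and 98.3 in P0), 2 that fell and a median of 0.03. At an unadjusted p under 0.05 in limma, 8 mitotic genes were higher and 11 lower in P1. The mitotic kinase *Cdk1* had 146 and 151 in P1, against 166 and 180.4 in P0, and the proliferation marker *Mki67* had 154 and 198 in P1, against 229 and 252 in P0. Of 18 genes of the G1 phase, cyclin D1, *Ccnd1*, rose (324 and 419 in P1, against 121 and 124 in P0), and *E2f2* (1.18 and 1.496 in P1, against 19.2 and 22.5 in P0), *Cdk2* and *Cdc25a* fell. The falls were 16.7% of the G1 list, against 12.0% of all genes. Whether replication genes differed from mitotic genes as lists was not tested.

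Chromatin genes fell in 14 of 32 and rose in 1, with a median of -0.86. The high mobility group genes *Hmgb3* (42.0 and 42.9 in P1, against 195 and 209 in P0), *Hmgb2* (52.5 and 54.6 in P1, against 229 and 234 in P0) and *Hmgb1* (505 and 523 in P1, against 1682 in both P0 libraries) fell, as did the lamin gene *Lmnb1* (71.8 and 77.0 in P1, against 308 and 333 in P0). The methyltransferases *Dnmt3a* (82.0 and 108 in P1, against 310.1 and 338 in P0) and *Dnmt3b* (4.06 and 4.43 in P1, against 12.2 and 12.3 in P0) and the Polycomb enzyme *Ezh2* (31.7 and 33.2 in P1, against 72.6 and 73.4 in P0) fell too. *Dnmt1*, the maintenance methyltransferase, had 258 and 266 in P1, against 506 and 538 in P0, and changed by -0.99, just short of the limit, and it passed with median-ratio size factors at -1.02. *Lmna* was the member that rose, by 1.08.

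**Figure D4:**
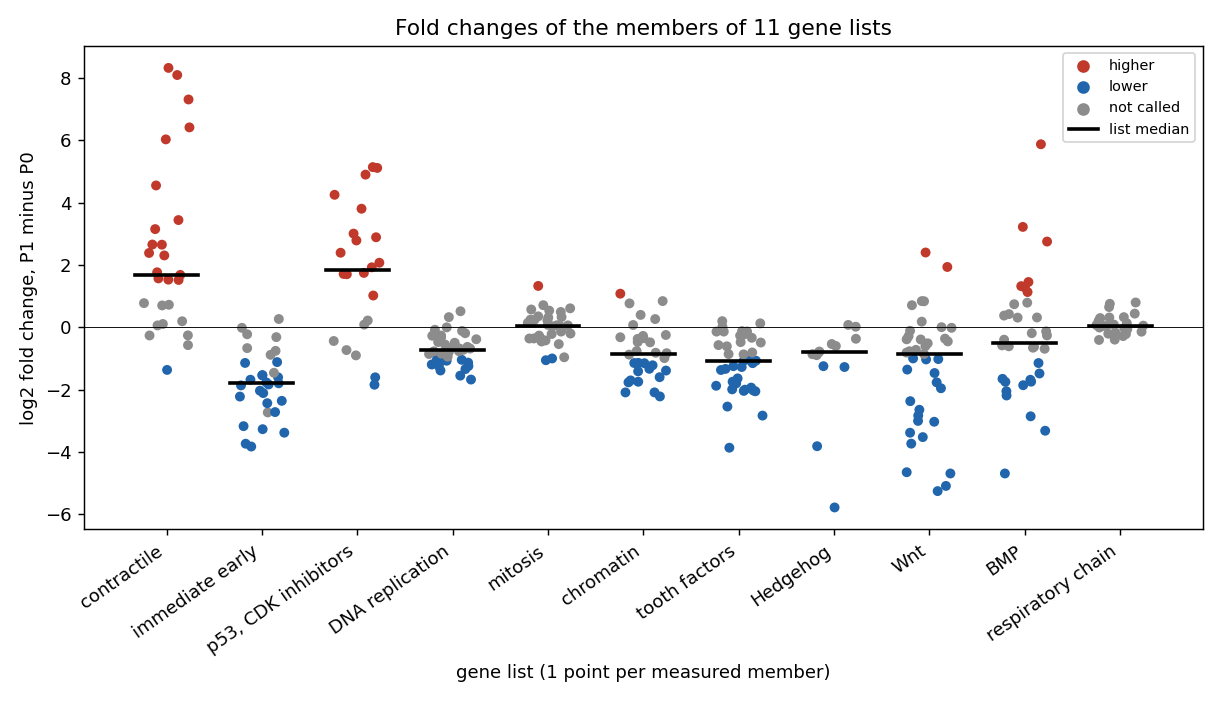
Log2 fold change of P1 minus P0 for each measured member of 11 gene lists, with members higher in P1 in red, lower in blue, not called in grey and the list median as a black bar. Contractile and p53 genes lie mostly above 0, immediate early, replication, chromatin and tooth genes mostly below, and mitotic and respiratory chain genes around 0.

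Transcription factors of tooth and craniofacial mesenchyme fell in 21 of 38 and rose in 0 (0 higher at an unadjusted p under 0.05), with a median of -1.08. *Sp7*, a factor of osteoblasts and odontoblasts, had 0.534 and 1.71 in P1, against 26.8 and 30.9 in P0, a change of -3.87 ± 0.29 (SE, adjusted p = 2.1e-04). *Runx2*, which acts upstream of it in bone, had 14.0 and 15.9 in P1, against 60.1 and 65.0 in P0, a change of -1.995 ± 0.12 (SE, adjusted p = 1.1e-04). The LIM homeobox gene *Lhx6* had 56.7 and 57.2 in P1, against 187 and 201 in P0, the paired box gene *Pax9*, needed for tooth development beyond the bud stage, had 54.4 and 76.2 in P1, against 157 and 180.4 in P0, and *Dlx1* had 51.2 and 51.8 in P1, against 183 and 201 in P0. Each of these genes, like every gene that fell, was lower in both P1 libraries. *Msx2* had 2.24 and 2.62 in P1, against 5.77 and 7.59 in P0, a change of -1.15 ± 0.28 (SE, adjusted p = 0.014). The relatives *Msx1* and *Lhx8* (132 and 138 in P1, against 176 and 201 in P0) did not pass, nor did *Runx1* (41.6 and 44.2 in P1, against 35.4 and 39.5 in P0).

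Mineralization genes moved in both directions, with 5 of 15 that rose and 8 that fell. The pyrophosphate-producing enzyme *Enpp1* had 2.83 and 2.94 in P1, against 113 and 144 in P0, and alkaline phosphatase *Alpl*, which breaks pyrophosphate down, had 2.83 and 5.55 in P1, against 88.4 and 99.998 in P0. Both enzymes of pyrophosphate fell. Osteoprotegerin *Tnfrsf11b*, a decoy receptor that limits osteoclast formation, had 325 and 367 in P1, against 5.66 and 6.84 in P0, a change of 5.58 ± 0.11 (SE, adjusted p = 9.8e-06), and osteopontin *Spp1* had 104 and 150.0 in P1, against 18.7 and 22.8 in P0.

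Hedgehog signaling genes fell in 4 of 13 and rose in 0 (0 higher at an unadjusted p under 0.05). *Gli1* (chromosome 10, 127329889 to 127341589 in mm10), transcribed in response to Hedgehog, had 0.107 and 0.214 in P1, against 60.6 and 65.3 in P0, a change of -5.79 ± 0.17 (SE, adjusted p = 1.7e-05), and the receptor and target *Ptch1* had 5.45 and 6.04 in P1, against 87.9 and 101 in P0. The signal transducers *Smo* (178 and 240.5 in P1, against 297 and 306 in P0) and *Gli3* (51.8 and 56.1 in P1, against 89.8 and 97.0 in P0) differed by less than 2-fold. Among Wnt genes 19 of 39 fell and 2 rose, with a median of -0.86. The feedback target *Axin2* had 1.18 and 2.08 in P1, against 62.1 and 66.5 in P0, a change of -4.66 ± 0.20 (SE, adjusted p = 4.0e-05), and the factor *Lef1* had 3.04 and 4.17 in P1, against 31.0 and 32.4 in P0. The secreted antagonists *Wif1* (0.320 and 0.427 in P1, against 47.2 and 56.5 in P0) and *Frzb* (12.7 and 18.2 in P1, against 538 and 566 in P0) fell as well, whereas *Dkk3* rose by 2.40.

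BMP genes rose in 7 of 34 and fell in 12. Among ligands, *Bmp2* (2.99 and 3.79 in P1, against 12.2 and 14.0 in P0) and *Bmp7* (0.0534 and 0.107 in P1, against 9.19 and 10.5 in P0) fell and *Bmp4* rose (129 and 177 in P1, against 61.9 and 76.0 in P0), by 1.13 ± 0.26 (SE, adjusted p = 0.011). The BMP antagonist *Grem1* (chromosome 2, 113746164 to 113758646 in mm10) had 1050.0 and 1168 in P1, against 17.2 and 18.7 in P0, a change of 5.87 ± 0.11 (SE, adjusted p = 7.8e-06), while the antagonist *Sostdc1* fell (2.46 and 3.42 in P1, against 95.7 and 105 in P0). *Inhbb*, an activin subunit, rose (9.19 and 16.99 in P1, against 0.427 and 0.481 in P0). The target *Id3* had 119 and 166 in P1, against 199.996 and 223 in P0, and did not pass, and *Id1* and *Id2* changed by -1.75 and -2.06.

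FGF genes fell in 10 of 21 and rose in 2. *Fgf3*, a ligand of dental mesenchyme, was listed at 0 in both P1 libraries and had 15.6 and 23.8 in P0. *Fgf10*, its companion in the tooth germ, had 22.2 and 29.2 in P1, against 19.98 and 23.2 in P0, and *Fgf7* rose (60.6 and 64.4 in P1, against 9.19 and 11.2 in P0). The receptor *Fgfr3* (1.71 and 3.53 in P1, against 43.9 and 44.6 in P0) and the feedback inhibitor *Spry1* (17.5 and 18.6 in P1, against 78.1 and 79.9 in P0) fell. Notch genes fell in 7 of 14 and rose in 0 (5 higher at an unadjusted p under 0.05). Of these *Notch4* (0.214 in both P1 libraries, against 17.8 and 20.7 in P0) and *Dll4* (listed at 0 in P1 and at 6.94 and 8.23 in P0) are known from endothelium, whose markers were lower too, and *Hey1* had 4.43 and 4.70 in P1, against 42.2 and 49.6 in P0. The ligand *Jag1* had 238 and 285 in P1, against 174 and 184 in P0, under the limit. *Hes1* had 79.0 and 138 in P1, against 40.3 and 44.5 in P0, and did not pass, although it did with the 4 libraries of P1 and P0 alone, at an adjusted p of 0.0122.

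TGF-beta genes rose in 6 of 18 and fell in 4, with *Pmepa1*, a feedback target, at 70.8 and 76.4 in P1, against 14.9 in both P0 libraries, and the coreceptor *Tgfbr3* at 13.03 and 13.4 in P1, against 43.9 and 44.3 in P0. Growth factor genes rose in 15 of 37 and fell in 8, of which 5 had closest libraries at least 2-fold apart. The neurotrophin receptors *Ngfr* (0.214 and 0.427 in P1, against 88.7 and 93.0 in P0) and *Ntrk2* (1.07 and 2.03 in P1, against 50.9 and 53.4 in P0) fell, while the ligand *Bdnf* rose (14.7 and 37.1 in P1, against 6.73 and 7.37 in P0), by 1.61 ± 0.45 (SE, adjusted p = 0.023). *Ngfr* is also a Schwann cell marker. *Vegfa* had 51.8 and 71.5 in P1, against 122 and 126 in P0, a fall by 1.02 on the log2 scale that left the closest libraries less than 2-fold apart. *Igfbp6* (34.5 and 56.3 in P1, against 0.214 and 0.321 in P0) and the ligand *Ereg* of the EGF receptor (11.9 and 45.0 in P1, against 0.427 and 0.855 in P0) rose, and *Igf2* had 698 in both P1 libraries, against 373 and 404 in P0, a change of 0.84, under the limit.

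Cytokine genes rose in 12 of 25 and fell in 3. *Il1rl1*, the receptor of interleukin 33, had 105 and 245 in P1, against 1.66 and 2.35 in P0, a change of 5.76 ± 0.39 (SE, adjusted p = 1.4e-04), and the chemokine *Ccl2* had 15.4 and 40.2 in P1, against 0.962 and 1.39 in P0. *Tnfrsf19*, a receptor linked to Wnt signaling, fell, with 2.99 and 3.42 in P1, against 176 and 193 in P0. Macrophage markers were not higher in P1, with summed levels between 25.6 and 30.2 in P1 and 114 and 129 in P0. Interferon and antigen presentation genes rose in 7 of 16 (43.8%) and fell in 2 (12.5%), against 12.2% and 12.0% of all genes. *Ifitm3* had 129.7 and 169 in P1, against 8.39 and 11.6 in P0, and *B2m*, the light chain of class I molecules, had 232 and 234 in P1, against 57.4 and 59.1 in P0, a change of 1.98 ± 0.08 (SE, adjusted p = 3.2e-05). *Irf1* fell (31.8 and 38.6 in P1, against 249.995 and 262 in P0).

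Of 27 respiratory chain genes none was called, 25 lay within 2-fold and 11 had an unadjusted p under 0.05, with a median of 0.05. Glycolysis and hypoxia genes rose in 5 of 27 (18.5%) and fell in 1 (3.70%), against 12.2% and 12.0% of all genes. The rises were led by phosphofructokinase *Pfkp* (87.4 and 121 in P1, against 16.5 and 18.7 in P0) and adrenomedullin *Adm* (10.9 and 35.2 in P1, against 0.214 and 0.641 in P0). *Ldha* had 735 and 847 in P1, against 847 and 895 in P0. Of the 5 that rose 3 had closest libraries at least 2-fold apart. Sterol and fatty acid genes rose in 7 of 29, of which 3 had closest libraries that far apart, and fell in 0 (3 lower at an unadjusted p under 0.05). The desaturase *Scd1* had 141 and 200.2 in P1, against 51.3 and 51.5 in P0, and *Nsdhl* of the sterol pathway had 51.3 and 75.3 in P1, against 18.6 and 22.1 in P0. Of 31 genes of the primary cilium 1 fell, *Bbs1*, and 23 lay within 2-fold.

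Cell guidance genes fell in 20 of 47 and rose in 2, with a median of -0.89. *Efnb3*, a membrane-bound ephrin, had 0.320 and 0.801 in P1, against 55.5 and 62.0 in P0, and *Plxnd1*, a semaphorin receptor also known from endothelium, had 11.6 and 14.47 in P1, against 107 and 113 in P0. *Sema3c* went up, with 524 and 566 in P1, against 15.1 and 19.4 in P0, and a change of 4.91 ± 0.19 (SE, adjusted p = 2.8e-05). Cadherin and protocadherin genes fell in 9 of 24 and rose in 4, with *Fat3* at 6.73 and 6.94 in P1, against 40.6 and 41.7 in P0. In the retinoid list 5 of 14 fell (35.7%) and 2 rose (14.3%), against 12.0% and 12.2% of all genes. Among the falls were the synthesis enzyme *Aldh1a2* (3.95 and 4.17 in P1, against 78.3 and 92.0 in P0) and the degrading enzyme *Cyp26b1* (10.9 and 12.3 in P1, against 67.3 and 71.8 in P0). Imprinted genes fell in 6 of 17 and rose in 0 (1 higher at an unadjusted p under 0.05), with *Dlk1* at 3.36 and 4.81 in P1, against 50.5 and 55.6 in P0, and *Mest* at 176 and 389.6 in P1, against 1178 and 1334 in P0. *H19* fell by the top shared step (3424 in both P1 libraries, against 7148 in both P0 libraries). Of 16 reference genes 2 rose, *B2m* and *Actb*, of which *Actb* moved by the same step (7148 in both P1 libraries, against 3424 in both P0 libraries).

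**Figure D5:**
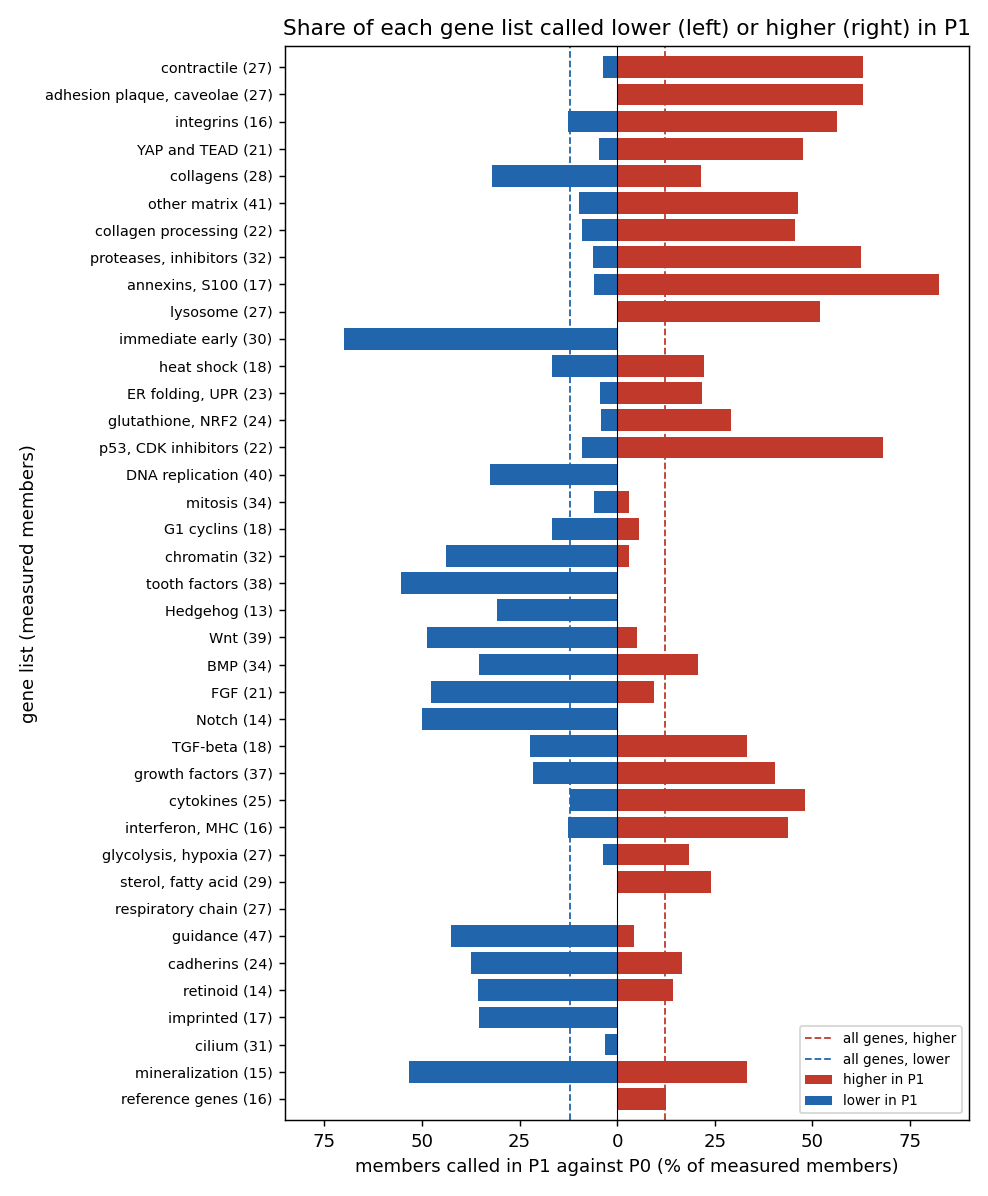
Share of the measured members of 39 gene lists called higher (red, right) or lower (blue, left) in P1, with dashed lines at the shares over all genes, 12.2% higher and 12.0% lower. Annexins and S100 proteins reach the largest share of rises and immediate early genes the largest share of falls, and the respiratory chain list has neither.

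Outside the lists, the largest rise was that of *Jph2*, which tethers membranes to the sarcoplasmic reticulum in muscle, with 161 and 272 in P1, against 0.962 and 1.496 in P0, and a change of 6.57 ± 0.31 (SE, adjusted p = 5.3e-05). *Cemip*, which degrades hyaluronan, had 162 and 214 in P1, against 1.76 and 2.03 in P0, and *Lrrc15*, a membrane protein of activated fibroblasts, had 121 and 132 in P1, against 1.39 and 1.496 in P0. Secreted *Wisp2* had 48.3 and 79.1 in P1, against 0.214 and 0.321 in P0, argininosuccinate synthase *Ass1* had 139.8 and 192 in P1, against 2.24 and 2.94 in P0, and the oncostatin M receptor *Osmr* had 65.5 and 79.4 in P1, against 0.641 and 0.748 in P0. These genes were under 3 scaled units in both P0 libraries. *Nupr1*, a stress-induced chromatin protein (38.7 and 67.9 in P1, against 0.214 and 0.641 in P0), and the mitochondrial folate enzyme *Aldh1l2* (107 and 249 in P1, against 4.59 and 4.70 in P0) rose as well. The other 12 of the 20 largest rises, from *Klhdc8a* to *Lurap1l*, had changes between 4.48 and 6.07.

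The largest fall outside the lists was that of *Tmem132c* (chromosome 5, 127241808 to 127565793 in mm10), a transmembrane protein, with 2.03 and 3.20 in P1, against 551 and 593 in P0, and a change of -7.33 ± 0.18 (SE, adjusted p = 1.0e-05). *Wdr86* had 0.214 and 0.534 in P1, against 94.3 and 98.8 in P0, and *Tril*, an accessory protein of Toll-like receptors, had 2.46 and 2.56 in P1, against 238 and 240.3 in P0. The opioid precursor *Penk* had 1.07 and 1.28 in P1, against 67.1 and 71.6 in P0, and autotaxin *Enpp2* had 1.60 and 1.76 in P1, against 71.3 and 83.1 in P0. Several of the 20 are known from endothelium, among them *Aplnr* (0 and 0.107 in P1, against 52.7 and 63.9 in P0), *Cd93* (3.20 and 3.63 in P1, against 135 and 139 in P0), *Podxl* and *Stab1*, and fell together with the endothelial markers. The falls ended at *St6gal2*, with a change of -4.24.

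The share of genes called differed with their level. With the genes in 4 groups by mean level, from low to high, 18.4%, 10.5%, 7.80% and 11.9% rose and 17.7%, 11.9%, 7.91% and 10.6% fell, so that the share was lowest in the group next to the highest. The lowest group had a median of 8.69 scaled units and the highest of 143. Only genes above a minimum value in some libraries were measured, as given with the cell markers. A gene of low mean level could pass that minimum by being high in only some libraries, which favours genes that differ. The larger shares in the lowest group therefore describe the measured genes and support nothing further. P2, set against P1 with the same limits, differed at 34 genes, 0.299% of those tested.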

How the data were processed

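Libraries of P1 and P0 mDMCs (2 each), with 2 of P2, had been prepared with a TruSeq kit and sequenced on an Illumina HiSeq. Per the labels and methods, the authors mapped reads to the mouse transcriptome (mm10) with bowtie and RSEM (1.1.21 in the submitters' processing notes) and normalized for GC content with EDASeq. The deposited score of a gene comes as a mean with its error, taken over the duplicates of a passage. It is neither a read count nor a CPM: mean ± error × √2 gave whole numbers for every gene (tolerance 1e-06), and 80.1% of the sorted values were identical in P1 and P0, as quantile normalization gives. These library values were divided by the passage total. Depth was not given, so no interval for counting error was made. The authors' own test on counts could not be repeated.

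Log2(scaled units + 1) of 11386 genes was fitted with limma 3.58.1 (R 4.3.3, trended empirical Bayes, 3 residual degrees of freedom), with Benjamini-Hochberg adjustment over all genes and the contrast P1 minus P0. All genes in the tables reached 1 scaled unit in 2 libraries and were kept. Calls needed an adjusted p under 0.05 and 2-fold. The fit was tested on simulated data. The text names up to 6 called members of each list with the largest changes, members the study's text names, the 20 largest rises and falls outside the lists among genes averaging 10 scaled units or more in whichever of P1 and P0 was higher, and members chosen after their values were seen. The comparison, lists and rules were chosen with earlier results of these data known. Alternatives were other pseudocounts, filters, scalings, fits and fold limits. Tables were made with Python 3.11.15. Gene names came from the files, and 11343 identifiers were matched to a name table. 1 line of each table was empty and is not reported here.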

Additional observations from a re-analysis of the deposited data

Results flagged for a closer look

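For 15 named genes the change from P0 differed between the 2 passages, tested in the limma fit as P2 minus P1, in which the P0 values cancel. The lysozyme gene *Lyz2*, a macrophage marker, was higher in P2 by 2.33 on the log2 scale, at 24.5 and 49.3 scaled units in P2, against 4.91 and 7.58 in P1. *Pappa* (1.41) and *Tnfrsf11b* (1.29), both of which rose in P1, were higher again in P2. Those lower in P2 than in P1 and already lower in P1 than in P0 were 6330403K07Rik (-1.79), the imprinted *Dlk1* (-1.64), the Wnt antagonist *Frzb* (-1.53), the retinoid-degrading *Cyp26b1* (-1.23), *Top2a* (-1.20), *Tnfrsf19* (-1.16), the lamin gene *Lmnb1* (-1.07), *Hmgb3* (-1.06) and *Cdkn1c* (-1.01). The glutathione transferase *Gsta4*, which had risen in P1, was lower in P2 (-1.29). *Vim* (-1.06) and *Malat1* (1.06) moved by the top step shared by the most abundant genes. No explanation of these differences was tested.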

How the results depend on the processing

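No count, list or named gene that was called changed direction under any alternative run. Without the fold limit 3367 genes were higher and 3318 lower in P1, and with a limit of 4-fold 461 and 455. Under the other settings the counts stayed between 1003 and 1459 higher, 1055 and 1427 lower, and 6360 and 7676 within 2-fold, with the lowest counts of calls at a pseudocount of 5 scaled units and the highest at 0.1. Leaving out 1 library of each passage could be done only as a bound, since the tables do not say which value is which replicate. In 1062 of the genes that rose and 1030 of those that fell the closest P1 and P0 libraries were still 2-fold apart. Of 102 counts of list members that rose or fell, 15 moved by over 1.5 times under this bound and 10 at a pseudocount of 5. Under the bound no fall was left among the contractile, YAP, mitosis, glycolysis, cilium and muscle marker lists, which had 1 or 2, and no rise among chromatin genes. Leaving out genes at the shared top value, an alternative chosen after seeing the data, gave 1379 higher and 1362 lower. No paired analysis was possible because the deposited means and errors carry no replicate numbers.

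Of the named genes, 21 calls were lost at a pseudocount of 5, *Actc1*, *Vegfa*, *Msx2* and *Bbs1* among them. The closest libraries of 20 named genes that were called stood less than 2-fold apart. *Aldoa* (0.99) dropped below the 2-fold limit and *Dnmt1* (-1.02) passed it with median-ratio size factors. The call of *Cdh19* was lost at a pseudocount of 0.1 (adjusted p = 0.26 in limma). *Fos* and *Dusp5* were lost without a variance trend, and *Fosb*, *Hes1* and *Zfp36* passed with 4 libraries, in which the spread of P2 plays no part. Rescaling shifted the median change of all genes by at most -0.02. The deposited values already shared a common distribution, so rescaling could hardly move it and is no check of the normalization. Values at the top step cannot show differences smaller than that step, and 20 genes were there in at least 1 P1 or P0 library.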

Other observations

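Genes with the same call lay side by side in 14 runs of 4 or more adjacent measured genes (mm10). On chromosome 6 a run that rose held *Tes*, *Cav2*, *Cav1* and *Met*, and on chromosome 1 one held the serpin genes *Serpinb7*, *Serpinb2*, *Serpinb10* and *Serpinb8*. On chromosome 2 a run that fell held *Dlx1as*, *Dlx1*, *Dlx2*, *Itga6* and *Pdk1*. The *Hbb* genes on chromosome 7 and a run on chromosome 11 that held *Krt15*, *Krt14* and *Krt17* fell, and both belong to markers of other cells. Whether such runs are more frequent than the order of genes alone would give was not tested, and overlapping or near-identical neighbours may share reads. The genomic span had a median of 19.8 kb in genes that rose, 24.5 kb in genes that fell and 22.2 kb in all genes.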
